A study of Arabidopsis thaliana with 6 samples.

Results

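The genes described here are the 4 members of the brassinosteroid receptor family of Arabidopsis thaliana, BRI1, BRL1, BRL2 and BRL3, and 4 co-receptor genes of the SERK family, BAK1, SERK1, SERK2 and SERK4. They are 8 of the 27444 protein-coding genes on the nuclear chromosomes, and they were taken by name. Only the peaks in each gene body or within 1 kb on either side were counted as peaks of that gene. BRI1, and the family with it, was chosen by the score of its peak in the glutaraldehyde library, so its score and rank there are given as a description. The other genes were added as its relatives.

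The study asked where the noncoding RNA HID1 sits on chromatin in germinating seeds whose red light receptor, phytochrome B, had been switched on. Chromatin isolation by RNA purification (ChIRP) pulls down an RNA with biotinylated antisense probes and sequences the DNA that comes with it. All 6 libraries came from wild-type Col-0 seeds, a laboratory accession, that had received 5 min of red light and then 48 h of darkness, with 0.3 g of seeds used for an assay. They comprise 2 probe, 2 mock (unlabelled probe) and 2 input libraries, and the analysis rests on the probe libraries' peaks. The first probe library was fixed with 1% formaldehyde, a reversible cross-linker, and the other with 1% glutaraldehyde, which is not reversible, each for 20 min. Each cross-linker is therefore represented by 1 library, cross-linker and library cannot be told apart, and no difference between them has a replicate check. Mock and input data were not used here, and peak positions carry no expression level with which the seed label could be checked.

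Brassinosteroids are plant steroid hormones that promote cell expansion and favour germination against abscisic acid. They are perceived at the plasma membrane by BRI1, a leucine-rich repeat receptor kinase, which binds the hormone with its extracellular domain and pairs with a SERK co-receptor. The paired kinases phosphorylate each other and start a cascade that inactivates the kinase BIN2 and lets the transcription factors BZR1 and BES1 act.

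The formaldehyde list held 4557 peaks and the glutaraldehyde list 6306. The score of a peak is the authors' value from their peak caller. The lowest scores lie at 50 in both lists, with medians of 74.3 and 72.3. Read depth is unknown from these lists, so neither a score nor the absence of a peak can be compared between libraries. At the HID1 locus itself, taken to be AT2G35747 from prior knowledge, the glutaraldehyde peak ranked 1 and the formaldehyde peak 23. The gene table lists that locus as a small nucleolar RNA of 80 bp without the HID1 name. It held 3.88% of the glutaraldehyde peak and 6.88% of the formaldehyde peak, and both peaks also touched other annotated genes.

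Of the 8 genes, 7 had a glutaraldehyde peak that reached into the gene body, and SERK4 had none in the body or within 1 kb. Only BRL1 of the 8 had a formaldehyde peak, and thus only BRL1 had peaks from both libraries. Among all protein-coding genes, 25.9% had a glutaraldehyde peak in the body or within 1 kb, 16.9% a formaldehyde peak and 4.84% a peak of each. For gene bodies alone the shares were 16.7%, 11.4% and 2.41%. The members are long genes, 3701 to 5242 bp against a median of 2078 bp, and longer genes meet a peak more often. Among the 2649 protein-coding genes in that range of length, 32.8% had a glutaraldehyde peak and 23.7% a formaldehyde peak within 1 kb, and 24.1% and 19.9% had one in the body. The count of 7 of 8 is not a test, since the genes were brought together with the BRI1 peak in view. The formaldehyde count of 1 of 8, or 12.5%, was near the 16.9% of all genes and below the 23.7% of those in that range of length. A peak of each library lay at 8.42% of the genes in that range. These differences were not tested.

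**Figure D1:**
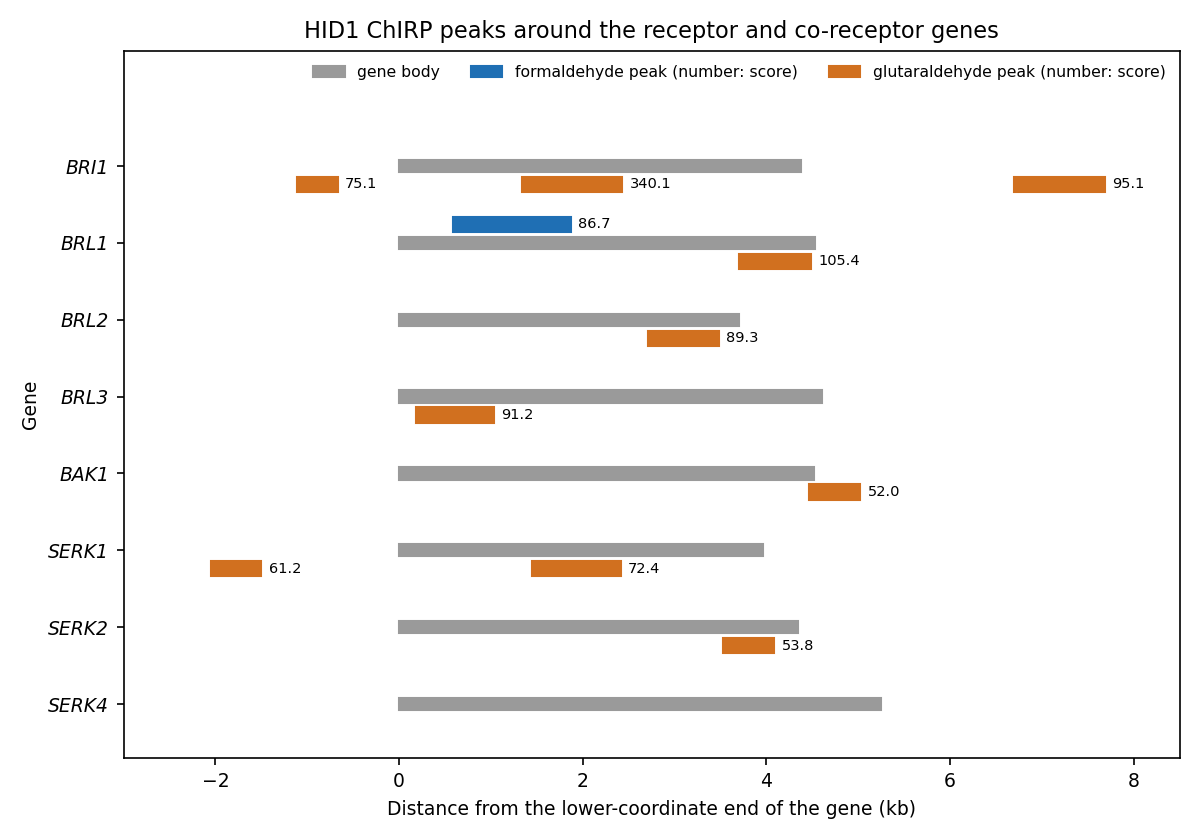
Peaks around the 8 genes, drawn to scale from the lower-coordinate end of each gene (x axis, kb; negative values lie below the gene), with 1 gene in each row of the y axis. Grey bars are gene bodies, blue bars above them formaldehyde peaks and orange bars below them glutaraldehyde peaks, each with its score. Orange bars touch 7 gene bodies, and the single blue bar lies in BRL1.

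BRI1 (AT4G39400), the main brassinosteroid receptor, spans 18324457 to 18328831 on chromosome 4 (TAIR10). Its glutaraldehyde peak, from 18325790 to 18326886, scored 340.1 and ranked 7 among 6306. By score per kb of width it ranked 36. The peak was 1097 bp wide, wider than 93.6% of the library's peaks, and it lay wholly inside the gene. It began 1333 bp from the lower-coordinate end and ended 1945 bp before the upper one, so it covered 25.1% of the body with its midpoint at 43.0% of the length. The strand and exons are not in the gene table used here, so positions are counted along the chromosome and not along the transcript. A weaker glutaraldehyde peak of BRI1 lay in the flank, from 18323347 to 18323788, 669 bp below the gene. It scored 75.1, was 442 bp wide and touched no annotated gene body. This flanking peak was the only one of the 8 genes' peaks that lay inside the window without touching the body. A further glutaraldehyde peak with a score of 95.1 stood 2321 bp above the gene, outside the window, in the long noncoding RNA AT4G09865. With 9 glutaraldehyde peaks within 50 kb, BRI1 had the most of the 8 genes, and the middle value over all protein-coding genes was 6.

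No formaldehyde peak accompanied the BRI1 peak. The nearest one to the gene lay 12141 bp below it in AT4G39380 with a score of 72.8, and the next lay 14482 bp above it in AT4G39420 with a score of 86.7. Of all protein-coding genes, 38.8% lay farther from a formaldehyde peak than BRI1 did. The annotated neighbours of BRI1 held no part of its body peak. The noncoding AT4G09855 ends 5656 bp below BRI1, and PLS, which encodes the small POLARIS peptide, begins 263 bp above it.

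Glutaraldehyde peaks of similar height to that of BRI1 lay on chromosomes 1, 2 and 5. The 3 ranked next above scored 353 to 365. Those at ranks 6 and 4 touched the bodies of AT5G38260 and AT5G25170, and the other, on chromosome 5 from 7256314 to 7257636, touched no annotated gene and overlapped a formaldehyde peak. The 3 ranked next below scored 327.0 to 337. One of them touched AT1G29030 and the RNA entry AT1G09055, and the others touched no gene body. Apart from the overlapping one, these neighbours in rank lay 2353 to 18234 bp from the nearest formaldehyde peak, and the BRI1 peak lay 13474 bp from it. Lack of a formaldehyde partner was common at this height. Of the 10 highest glutaraldehyde peaks 2 overlapped a formaldehyde peak, of the 50 highest 7, and of all 6306 483, or 7.66%.

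**Figure D2:**
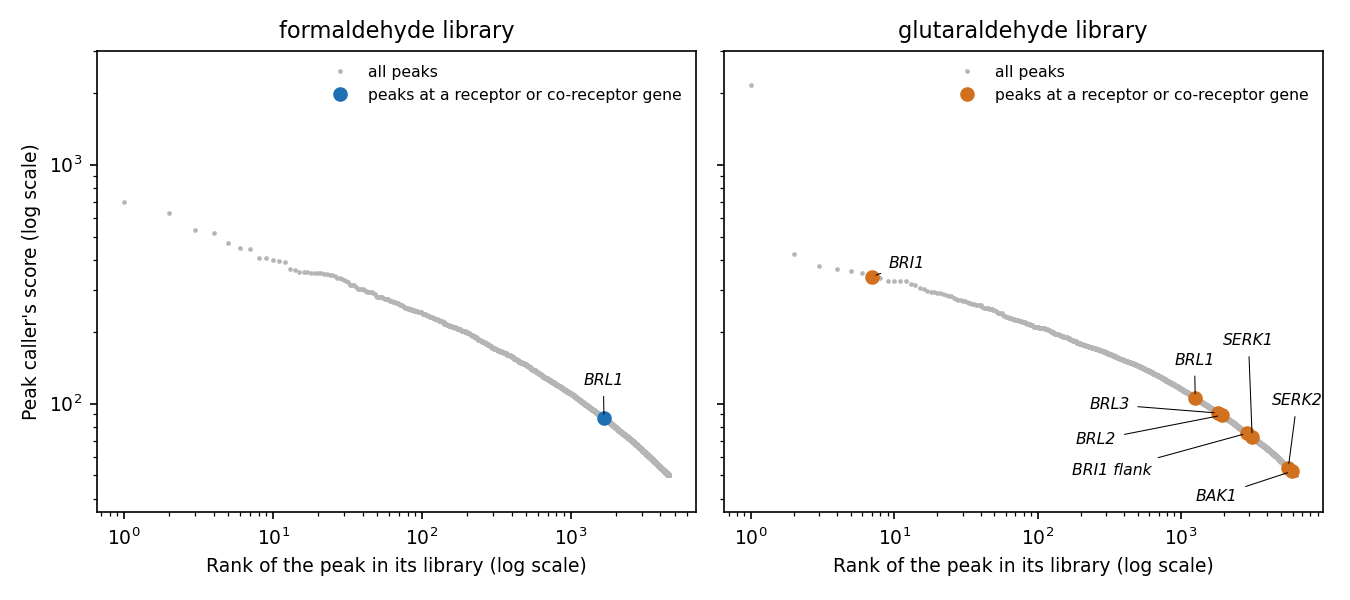
Score of every peak (y axis, peak caller's score, log scale) against its rank in its library (x axis, log scale), formaldehyde on the left and glutaraldehyde on the right. Grey points are all peaks and coloured points those in or within 1 kb of the 8 genes. BRI1 stands at rank 7 with 340.1, and every other coloured glutaraldehyde point lies at 105.43 or below.

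BRL1 (AT1G55610), a close homologue of BRI1 that binds brassinosteroids and acts in vascular tissue, spans 20779493 to 20784017 on chromosome 1. Its glutaraldehyde peak, from 20783196 to 20783983, scored 105 and ranked 1257. This peak ended 34 bp inside the upper-coordinate end, with its midpoint at 90.5% of the body. The formaldehyde peak of BRL1, from 20780085 to 20781365, scored 86.7, rank 1669 of 4557, and had its midpoint at 27.2% of the body. The peaks lay at opposite ends of the gene with 1830 bp between them, so BRL1 counted as a gene with a peak in each library but held no shared peak. Among protein-coding genes with a glutaraldehyde peak in the body, 19.0% also had a formaldehyde peak in the body or within 1 kb, against 16.5% of those without. The nearest genes were the pseudogene AT1G55604, 1363 bp below, and CLC-F, which encodes a chloride channel family protein, 3057 bp above. Another formaldehyde peak, with a score of 106, lay 4719 bp below BRL1 in the transcription factor gene WRKY10.

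BRL2 (AT2G01950), also named VASCULAR HIGHWAY 1, is a member of the receptor family that acts in leaf vein patterning. It spans 440624 to 444324 on chromosome 2. Its glutaraldehyde peak, from 443333 to 444105, scored 89.3 and ranked 1925. It was 773 bp wide, with its midpoint at 83.6% of the body. The nearest formaldehyde peak was 28805 bp away, in CYCJ18, and 12.6% of protein-coding genes were farther from one. BRL2 stands alone: SGR5 below it and TET14 above it are 5524 and 6055 bp distant, so neither lies near the peak.

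BRL3 (AT3G13380), the other homologue known to bind brassinosteroids, spans 4346330 to 4350939 on chromosome 3. Its glutaraldehyde peak, from 4346509 to 4347360, scored 91.2 and ranked 1825. It lay near the lower-coordinate end, with its midpoint at 13.1% of the body, while those of BRL1 and BRL2 lay towards the upper one. Without the strand, it cannot be told whether these are different ends of the transcripts. The nearest formaldehyde peak was 98372 bp away, and only 0.270% of protein-coding genes lay farther from one. No formaldehyde peak at all was found within 50 kb of BRL3, where the median gene had 3. The upper end of BRL3 overlaps sks11, a gene of the multicopper oxidase-like family, away from the peak. The noncoding AT3G02685 ends 534 bp below the gene, and sks13 lies 3984 bp above it.

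Among the co-receptors the glutaraldehyde peaks were weaker. The 4 receptor peaks within gene bodies scored 89.3 to 340.1, and the 3 co-receptor peaks 52.0 to 72.4. BRI1 was chosen for its score, and its flanking peak scored 75.1, close to the 72.4 of SERK1. The body peaks of BRL2, BRL3 and BRL1 scored above 69.5%, 71.1% and 80.1% of the library's peaks. Those of SERK1, SERK2 and BAK1 scored above 50.2%, 11.1% and 6.15%. Without BRI1 the highest receptor score was 105. All receptor peaks were above the library's median score of 72.3, while SERK1 lay just above it and BAK1 and SERK2 well below. These scores come from 1 library, and receptors and co-receptors were not tested against each other.

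BAK1 (AT4G33430), also called SERK3, is the co-receptor that pairs with BRI1 and also with the immune receptors FLS2 and EFR. It spans 16086311 to 16090832 on chromosome 4. Its glutaraldehyde peak, from 16090772 to 16091331, scored 52.0 and ranked 5912 among 6306, close to the lowest score in the list. Only 61 bp of it, 10.9% of the peak, lay in the body, and the rest extended into the space above the gene, before AT4G33440, which begins 703 bp beyond BAK1. BAK1 is thus the member whose place among the genes with a body peak rests on a short overlap. On its other side the gene overlaps AT4G33420, and SPPL1 lies 2913 bp below. The nearest formaldehyde peak, in AT4G33390 9055 bp below BAK1, was strong, with a score of 231 and rank 115.

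SERK1 (AT1G71830) and SERK2 (AT1G34210) are closely related co-receptors that act together in anther development. SERK1 spans 27018158 to 27022117 on chromosome 1, and its glutaraldehyde peak, from 27019600 to 27020570, scored 72.4, rank 3138. That peak was 971 bp wide and lay in the middle of the gene, with its midpoint at 48.7% of the body, the position nearest to that of the BRI1 peak. A second glutaraldehyde peak of 61.2 lay 1499 bp below SERK1 in SEC6, just beyond the window. SERK1 is crowded, with the noncoding AT1G71828 across its lower end and AT1G71840 only 21 bp above it, but its body peak touched neither.

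SERK2 spans 12458564 to 12462905 on chromosome 1. Its glutaraldehyde peak, from 12462094 to 12462651, scored 53.8, rank 5607, and had its midpoint at 87.7% of the body. It ended 254 bp inside the upper end and did not touch AT1G34220, which overlaps that end. AT1G34200 ends 1017 bp below SERK2, and the pseudogene AT1G34230 lies 4057 bp above it. Formaldehyde peaks were distant from both genes, at 17523 bp from SERK1 and 35355 bp from SERK2.

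SERK4 (AT2G13790), also named BKK1, acts redundantly with BAK1 in brassinosteroid signalling and in the control of cell death. It spans 5741592 to 5746833 on chromosome 2 and is the longest of the 8 genes at 5242 bp, yet it was the member without a peak. Its nearest glutaraldehyde peak was 17095 bp away, with a score of 152, and its nearest formaldehyde peak 9747 bp away in the pseudogene AT2G13750, with a score of 133. The glutaraldehyde peak lay in AT2G13720, where the second nearest formaldehyde peak of SERK4, with a score of 148, also lay. SERK4 had 2 glutaraldehyde peaks within 50 kb, the fewest of the 8 genes, and 6 formaldehyde peaks, the most. SERK5, its neighbour 6270 bp above, had no peak either, the nearest being 28606 bp away with glutaraldehyde and 21258 bp with formaldehyde. AT2G13770 lies 3729 bp below SERK4.

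**Figure D3:**
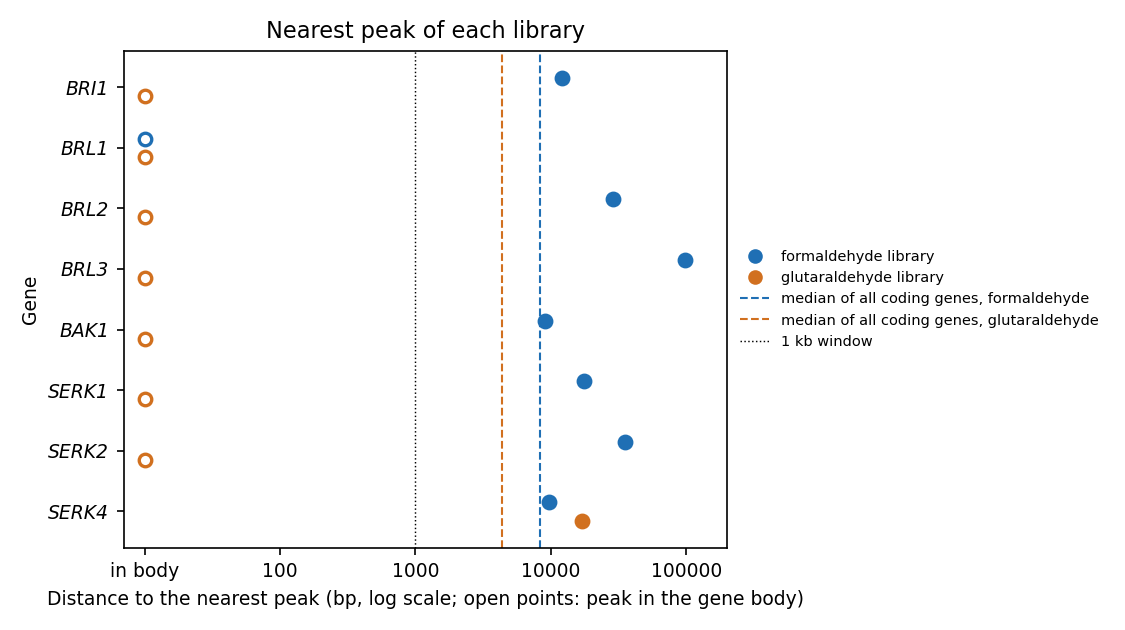
Distance from each of the 8 genes (y axis) to its nearest peak (x axis, bp, log scale), with open points for peaks in the gene body, blue for formaldehyde and orange for glutaraldehyde. Dashed lines are the medians of all 27444 protein-coding genes, 8304.5 bp for formaldehyde and 4362 bp for glutaraldehyde, and the dotted line marks 1 kb. For 7 genes the nearest formaldehyde peak is 9055 to 98372 bp away, and orange lies in the body for all but SERK4.

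Across the 8 genes, the nearest formaldehyde peak was thus farther than the median of all genes for 7 and in the body for BRL1. The median over the members was 14832 bp against 8304.5 bp. The number of glutaraldehyde peaks within 50 kb was 2 to 9 with a median of 6.5, close to the 6 of all protein-coding genes. Formaldehyde peaks within 50 kb numbered 0 to 6 with a median of 2, against 3. The 7 body peaks of glutaraldehyde were 558 to 1097 bp wide, and 5 of them were wider than the library's median of 630 bp. Of these 7, 6 lay wholly inside the gene. Along the chromosome they took no common position. The midpoints of BRI1 and SERK1 lay in the middle, and those of BRL1, BRL2 and SERK2 towards the upper-coordinate end. That of BRL3 lay towards the lower end, and that of BAK1 outside the body. Positions along the transcripts could not be compared, because the strand was not known.

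The other genes of the pathway were examined with the same window. Of 12 genes of brassinosteroid synthesis and inactivation, 3 had a glutaraldehyde peak and 3 a formaldehyde peak, where 25.9% and 16.9% of all protein-coding genes had one, so the glutaraldehyde count was near the share of all genes. DWF4, which encodes a rate-limiting hydroxylase of synthesis, had a glutaraldehyde peak of 56.3 that reached 124 bp into the body. It also touched the long noncoding RNA AT3G08135. ROT3, a cytochrome P450 of the same pathway, had a formaldehyde peak of 68.0 at one end and a glutaraldehyde peak of 57.2 at the other. Only 226 bp of that glutaraldehyde peak, 22.3% of it, lay in the body, and it also touched AT4G36370. BR6OX2, the enzyme of the last oxidation step, had peaks of both libraries above the gene, at 799 bp with a glutaraldehyde score of 76.6 and at 917 bp with a formaldehyde score of 54.4. These peaks overlapped each other. SOB7, listed as CYP72C1 and known to lower brassinosteroid levels, had a formaldehyde peak of 96.9 in its body, which also touched the protein-coding AT1G17065.

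Of 17 genes that signal below the receptor, 8 had a glutaraldehyde peak, 47.1% against 25.9% of all protein-coding genes. A formaldehyde peak was found at 2, 11.8% against 16.9%. These genes were 1649 bp (BEH1) to 7662 bp (BSL2) long, and the shares were not matched to their lengths. Among protein-coding genes as long as the members, 32.8% had a glutaraldehyde peak in the window and 24.1% one in the body. The glutaraldehyde count fell to 4 of 17, 23.5% against 16.7%, with gene bodies only, and to 3 of 17 when 50% of the peak had to lie in the body, against 13.2% of all protein-coding genes. BSK1 and BSK3, kinases that BRI1 phosphorylates directly, had glutaraldehyde peaks wholly in the body, of 53.2 in BSK1 and 75.0 in BSK3. A second peak at BSK1, of 64.9, had 188 bp in the body and the rest beyond the gene. Of the phosphatase genes related to BSU1, BSL2 had a glutaraldehyde peak of 86.6 at 85 bp, in AT1G08410, and BSL3 one of 66.6 at 487 bp, in BLH5. Of the kinases related to BIN2, BIL1 had a glutaraldehyde peak of 50.4 and a formaldehyde peak of 56.7 at opposite ends of the gene, the latter also in ASP1. BIL2 had a glutaraldehyde peak of 50.4 at 411 bp, in ARA-2. BES1, a transcription factor of the pathway, had a glutaraldehyde peak of 64.6 that was shared with the adjoining RRA3. BEH2, a homologue of BES1, had peaks of 70.2 with glutaraldehyde and 81.0 with formaldehyde below the gene, both in AT4G36770. The glutaraldehyde peak of BEH2 lay wholly inside the formaldehyde peak. The inhibitor BKI1, the kinase BIN2 and BZR1 had no peak in the window.

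A list of 17 other leucine-rich repeat receptor kinases held genes that pair with SERK proteins or resemble BRI1, and SERK5. Of these 17, 2 had a glutaraldehyde peak, 11.8% against 25.9% of all protein-coding genes and 32.8% of those as long as the members. A formaldehyde peak was found at 5, 29.4% against 16.9% and 23.7%. How the lists differ from each other was not tested. The glutaraldehyde peaks were at PSKR2, a phytosulfokine receptor, and at ERL1, a growth receptor of the ERECTA family. That of PSKR2 scored 60.9 and lay 126 bp from the gene, and that of ERL1 scored 55.0 with 50 bp in the body. The formaldehyde peaks all lay in gene bodies. They scored 58.4 in PSKR2, 71.8 in ERECTA, 56.0 in ERL2, 72.8 in BIR1, a SERK-interacting kinase that restrains immunity, and 109.7 in HSL2, a receptor of floral organ shedding. FLS2, EFR and EMS1 had no peak in the window. The glutaraldehyde peaks in the window of these 46 pathway genes scored 50.4 to 86.6, below the body peaks of all 4 BRI1-family receptors. The flanking peak of BRI1, at 75.1 in the same window, lay within that range, and BRI1 was chosen for its score. The lowest of the 4 body peaks, that of BRL2 at 89.3, scored above 69.5% of the library's peaks.

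**Figure D4:**
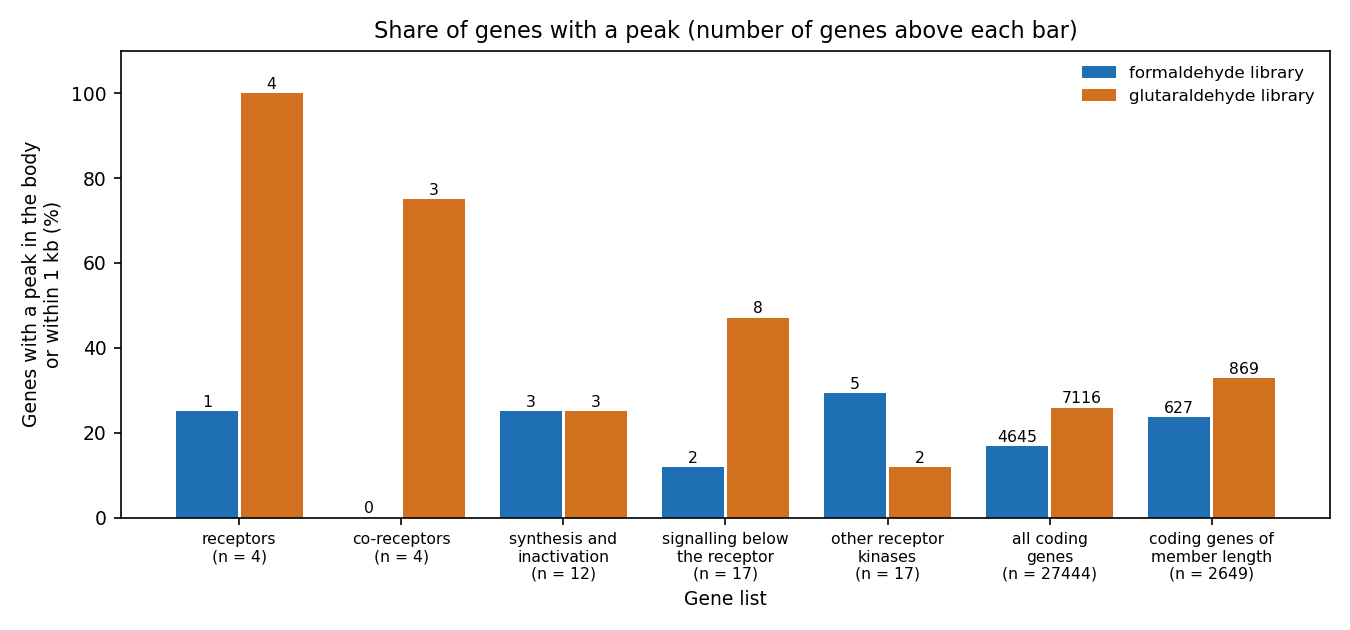
Share of genes with a peak in the body or within 1 kb (y axis, %) for each gene list and for all protein-coding genes (x axis), blue for formaldehyde and orange for glutaraldehyde, with the number of genes above each bar. Glutaraldehyde peaks lie at all 4 receptors and 3 of 4 co-receptors, at 8 of 17 signalling genes and at 2 of 17 other receptor kinases, and 25.9% of all coding genes have one.

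With only peaks of 100 or more, BRI1 and BRL1 were the members left with a glutaraldehyde peak, and no member had a formaldehyde peak. BRI1 was chosen for its score, so its place here is given by the choice, and of the other 7 genes 1 was left. Such peaks lay at 6.60% of all protein-coding genes with glutaraldehyde, at 8.42% of those as long as the members, and at 4.31% of all with formaldehyde. Of the 46 other pathway genes none then had a glutaraldehyde peak, and HSL2 alone had a formaldehyde peak.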

How the data were processed

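The deposited peak lists of the 2 probe libraries were used, each called on its own sample. Per the submitters' processing notes the tools were Bowtie2 2.1.0 and MACS 1.4.2 on TAIR10. The score is the authors' deposited value, which in MACS of this version equals -10 times log10 of the p-value of the peak. No source used here says which control library was used or how duplicate and multiply mapped reads were handled. SERK genes resemble each other, and what multiply mapped reads add to their peaks was not tested.

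Genes were placed with RefSeq's table for TAIR10.1, whose nuclear coordinates are, from background knowledge, those of TAIR10. All 54 loci were found, and 53 symbols matched a symbol or synonym. The exception, BIR3, had no peak. Peak starts were converted to count from 1. Ranks are by score within a list. Overlap counting with Python 3.11.15 and pandas 2.3.3 was tested on simulated peaks. No significance test was made. The members, lists and rules were chosen with earlier results of these data known.

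All members are named, with their neighbours, every other listed gene with a peak, HID1, and the 3 glutaraldehyde peaks on either side of BRI1 in rank. BKI1, BIN2, BZR1, FLS2, EFR, EMS1 and SERK5, without peaks, and genes under the next nearest peaks were added after their values were seen. Alternatives were gene bodies only, flanks of 500 bp and 2 kb, a score of 100 or more, peak midpoints, each library alone and other rankings of BRI1. A rule that 50% of a peak lie in the body was chosen after seeing the data.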

Additional observations from a re-analysis of the deposited data

How the results depend on the processing

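The 7 members with a glutaraldehyde peak numbered 7 with gene bodies only, flanks of 500 bp or 2 kb and peak midpoints, where 16.7%, 21.4%, 34.4% and 22.6% of all protein-coding genes had such a peak. They were 6, against 13.2%, when 50% of the peak had to lie in the body, which BAK1 did not meet. At a score of 100 or more they were 2, the members with a formaldehyde peak 0 and those with both 0. Of the other 46 pathway genes, 13 (28.3%) had a glutaraldehyde peak, against 25.9% of all protein-coding genes. With bodies only they were 7 (15.2% against 16.7%) and under the 50% rule 3 (6.52% against 13.2%). At a score of 100 or more they were 0, against 6.60%. A formaldehyde peak was found at 10 (21.7% against 16.9%), and at 1 (2.17% against 4.31%) at that score. Members with a peak in either library ranged from 1 to 7 when a library was left out: without the glutaraldehyde library only BRL1 remained. BRI1 ranked 5 among peaks in protein-coding gene bodies and 36 by score per kb of width. No paired analysis was possible because the results come from no test and peaks of the probe group alone were used. Unknown read depth limits every absence of a peak.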

Other observations

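Receptor kinases other than the members were examined by name, and they may include pathway genes already listed above. The gene table holds 149 other protein-coding genes whose symbol or synonyms contain the words receptor and kinase, a set chosen after the members' values had been seen. Of these, 45 (30.2%) had a glutaraldehyde peak in the body or within 1 kb and 39 (26.2%) a formaldehyde peak, against 25.9% and 16.9% of all protein-coding genes. Among protein-coding genes as long as the members, 32.8% and 23.7% had one. For gene bodies alone the shares were 18.8% and 20.8%, against 16.7% and 11.4% of all protein-coding genes. Those as long as the members had 24.1% and 19.9%. At a score of 100 or more, 14 (9.40%) had a glutaraldehyde peak and 24 (16.1%) a formaldehyde peak, against 6.60% and 4.31% of all protein-coding genes. Among those as long as the members the shares were 8.42% and 6.38%. The 149 genes were not matched for length. No test was made of these shares, and the set depends on how completely the table names such genes.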
